A study of Mus musculus with 60 samples.

Results

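The cytosolic ribosomal protein genes encode the protein components of the ribosome that works in the cytoplasm, and 77 of them were measured here among 18088 genes. Members were the protein-coding genes whose symbol is Rpl or Rps and a number, with no more after it than an a, an x or a 1, together with Rplp0, Rplp1, Rplp2 and Rpsa, whose value reached at least 10 in at least 5 libraries. All 77 annotated genes with such symbols were in the table and passed, against 17810 of 18088 genes overall. The large subunit accounted for 46 of them and the small subunit for 31.

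Most of these proteins are present in a single copy per ribosome, and the genes are transcribed at high and balanced levels in almost every cell. Their mRNAs typically begin with a C followed by a run of pyrimidines, the 5′ terminal oligopyrimidine or TOP tract, through which the mTORC1 kinase and the RNA-binding protein Larp1 adjust their translation and stability together. In neurons, ribosomal protein mRNAs are also found in dendrites and axons, and the phosphorylated form of Rps6 is widely used as a marker of recently active cells. A further property bears on any RNA measurement: these genes have spawned many processed pseudogenes, intronless copies scattered over the genome that can hold nearly the same sequence.

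RNA was sequenced from the prefrontal cortex of C57BL/6J mice at postnatal day 25. Heterozygous mice carried the C456Y substitution in Grin2b (Grin2b+/C456Y, called Het) and were compared with wild-type mice (WT). Grin2b encodes a subunit of the NMDA glutamate receptor. Fluoxetine, a serotonin reuptake inhibitor, lithium, a mood stabiliser, or vehicle reached the pups through the milk of the mother from day 3 to day 24. The 6 arms were Het fluoxetine, WT fluoxetine, Het lithium, WT lithium, Het vehicle and WT vehicle, each with 5 female and 5 male libraries, 60 in all. Replicates are numbered in the labels, which do not say whether they were separate animals or litters, so p-values measure the spread between libraries. The deposited values carry no allele information and so do not check the genotype labels.

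Values are the normalised read counts of the authors, that is whole reads divided by 1 factor per library, and a library held 23901635 to 37769417 reads. Fold changes are differences of log2(value + 1) fitted with limma over all 60 libraries, averaged over the sexes unless stated. A gene was called at a Benjamini-Hochberg adjusted p under 0.05 over all 17810 genes tested. Levels of different genes are compared only after division by transcript length, except for the shares held by copies, which use the undivided values.

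Some libraries stood apart from the rest. A set of 16 pseudogenes was chosen for differing over 4-fold between Het fluoxetine and WT fluoxetine libraries, and all 16 were lower in Het fluoxetine. Their mean level was low in 10 libraries. That most of these, 9 of 10, were Het fluoxetine follows from that choice, while the choice did not fix that Het fluoxetine male replicate 1 was not low and that WT vehicle female replicate 2 was. Among these 16 pseudogenes 3 were copies of members, namely Rpl14-ps1, Rps6-ps4 and Gm9794, a copy of Rpl23. In the Het fluoxetine libraries GC-rich genes were also lower: the correlation of a gene's deviation with its GC content lay between -0.467 and -0.154 in these 10 libraries. GC content is that of a gene's longest annotated transcript. WT lithium male replicate 5 had the lowest correlation of all 60 libraries, -0.756, and WT vehicle female replicate 2 the next, -0.509. Summed markers of neurons, astrocytes, oligodendrocytes, microglia and vessels were above 0 in every library, and Het fluoxetine and WT lithium mice differed from vehicle mice in some of them, as given below. In bulk tissue, fewer cells of a type and less RNA per cell cannot be told apart.

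Start sites are shown first, since the TOP tract is a feature these genes are known for and the naming rule did not use it. RefSeq start sites on GRCm38.p6 were at hand for 57 of the 77 members. A C followed by at least 6 further pyrimidines (C or T), searched on the strand of the gene within 20 bases on either side of the start, was found for 32 of the 57 (56.1%), against 5773 of 27025 genes (21.4%). On the opposite strand, where the tract would have no TOP role, the same search matched 7 of 57 members (12.3%) and 23.4% of all genes. Below, 40 bases around the start are given 5′ to 3′ on the strand of the gene, with the longest tract in capitals. Rpl28, Rpl38, Rps21 and Rps16 are shown because they had the smallest p-values for Het fluoxetine mice, and Rps9 and Rps6 because they were among the 5 smallest for WT lithium mice. Rps16 has no tract, and Rps21 has a further start without one that is not shown.
Rpl28, chr7:4792945-4792984, plus strand: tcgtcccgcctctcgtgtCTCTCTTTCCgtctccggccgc
Rpl38, chr11:114668560-114668599, plus strand: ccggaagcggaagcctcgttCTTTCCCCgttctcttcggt
Rps21, chr2:180257359-180257398, plus strand: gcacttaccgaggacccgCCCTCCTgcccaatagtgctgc
Rps9, chr7:3704021-3704060, plus strand: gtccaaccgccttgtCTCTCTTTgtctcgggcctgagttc
Rps6, chr4:86857348-86857387, minus strand: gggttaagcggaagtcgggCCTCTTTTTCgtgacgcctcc
Rps16, chr7:28350669-28350708, plus strand: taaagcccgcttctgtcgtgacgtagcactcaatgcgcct

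Levels per length spanned a wide range. Rplp1, a protein of the stalk that recruits translation factors, was highest at 13879 normalised counts per kilobase, followed by Rpl41, the smallest ribosomal protein, at 12182 and Rps15 of the small subunit at 9105. The median over the 77 members was 4392 per kilobase. The lowest were Rps27 at 197, Rpl12, a protein at the base of the stalk, at 241 and Rps20 at 528 per kilobase. Rps20 has only a 3706-base principal transcript in the annotation, so its level per length is uncertain. Rps27 and Rpl12 each share their coding sequence with a second row of the table, described next.

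Members shared a median of 63.1% of their 31-base words with other genes (range 2.6% to 98.7%), and a median of 15 annotated pseudogenes held some of these words. For 27 members the table held rows for copies, and 32 of these rows passed the filter on low values. Copies were matched by name or by shared sequence, and a match by name alone can share few words (19.4% for Rpl29-ps2). Copies held 95.4% of the combined value of Rps27 and its copy Rps27rt, 91.5% for Rpl12 and Gm10275, 75.4% for Rpl5 and Gm15500, 71.9% for Rpl10 and its copies, 51.0% for Rpl27a and 50.7% for Rps23. Where a copy matches the coding sequence base for base, reads from it cannot be assigned by sequence. The coding sequence of Rpl5 (894 bases) matched Gm15500 at all 894 bases, that of Rps27 matched Rps27rt at all 255 and that of Rpl12 matched Gm10275 at all 498. Below are bases 41 to 80 of the Rpl5 coding sequence beside Gm15500, and bases 233 to 272 of the Rpl23 coding sequence beside Gm9794. The Rpl23 pair differed at 1 of 423 coding bases, C253T, numbered from the A of the start codon and written with the Rpl23 base first, shown in capitals.
Rpl5, chromosome 5: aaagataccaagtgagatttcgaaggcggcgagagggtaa
Gm15500, chromosome 7: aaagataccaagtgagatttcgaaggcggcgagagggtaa
Rpl23, chromosome 11: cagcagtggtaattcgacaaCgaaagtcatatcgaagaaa
Gm9794, chromosome 6: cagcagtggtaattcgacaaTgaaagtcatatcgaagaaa

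Het fluoxetine libraries had the lowest mean share of reads on these genes. Reads on the 77 members made up 0.803% ± 0.033 of a Het fluoxetine library, against 0.911% ± 0.049 in Het vehicle and 0.908% ± 0.038 in WT fluoxetine libraries (SD, n = 10 each). The 10 Het fluoxetine libraries ranged from 0.744% to 0.854%, the Het vehicle libraries from 0.815% to 0.984% and the WT fluoxetine libraries from 0.834% to 0.953%. The Het fluoxetine range thus overlapped the lower end of both others. Counting error is small beside these spreads, with 95% Wilson intervals of at most 0.0038 percentage points on either side. Het lithium libraries stood at 0.871% ± 0.057, WT lithium libraries at 0.850% ± 0.095 and WT vehicle libraries at 0.906% ± 0.062 (SD, n = 10 each).

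**Figure D1:**
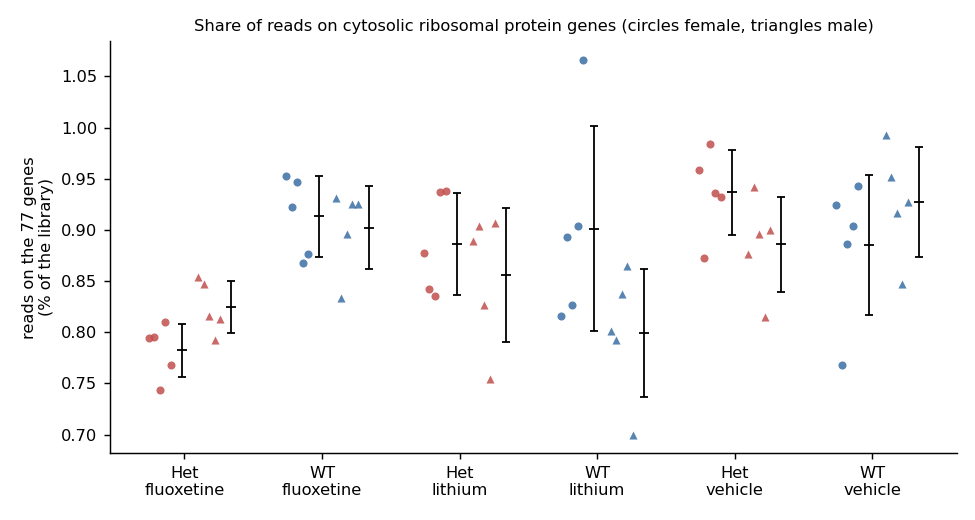
Share of each library's reads on the 77 genes (vertical axis, percent) in the 6 arms, females as circles and males as triangles, with the mean ± SD of each group of 5. The Het fluoxetine libraries lie between 0.744% and 0.854%, and the highest and lowest of all 60 libraries are WT lithium female replicate 5 and WT lithium male replicate 5.

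The first question is what fluoxetine did in Het mice. In Het fluoxetine relative to Het vehicle mice, 59 of 77 members fell and 2 rose (limma, adjusted p under 0.05), 61 in all (79.2%). Of all genes tested 39% were called, and 19.9% were called lower. The median log2 fold change of the members was -0.19, against 0.00 over all genes, and 72 of 77 were negative. Of the large subunit genes 35 fell and 2 rose of 46, and of the small subunit genes 24 fell and none rose of 31. For 19 members (24.7%) every Het fluoxetine library lay below every Het vehicle library of either sex, and for none above, where 4.12% of all genes separated in either direction.

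Rpl28, a large subunit protein, had the smallest p. Its value was 1647 at the lowest, 1687 at the median and 1995 at the highest in Het fluoxetine libraries, against 2083, 2249 and 2424 in Het vehicle libraries. The 2 arms did not overlap. The log2 fold change was -0.38 ± 0.05 (SE, adjusted p = 1.16e-08, limma). Rps16, a small subunit protein whose tail reaches the transfer RNA, stood at 1078, 1181 and 1322 in Het fluoxetine against 1390, 1493 and 1703 in Het vehicle libraries. These ranges were also separate, with a log2 fold change of -0.36 ± 0.04 (adjusted p = 2.00e-08, limma).

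Rps21, a small subunit protein, measured 1480, 1571 and 1739 in Het fluoxetine libraries and 1896, 2033 and 2392 in Het vehicle libraries. These ranges were separate, and the log2 fold change was -0.40 ± 0.05 (adjusted p = 3.30e-08, limma). Rpl38, whose loss of 1 copy in mice alters the axial skeleton, measured 1217, 1302 and 1380 in Het fluoxetine libraries and 1598, 1824 and 2026 in Het vehicle libraries. It fell by 0.48 (SE 0.06, adjusted p = 3.47e-08, limma), with no overlap between the arms.

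The 3 largest falls were those of Rps28 (-0.56), Rps29 (-0.52) and Rpl36 (-0.48), all short proteins. Rps28 measured 753 to 926 in Het fluoxetine libraries and 995 to 1506 in Het vehicle libraries, without overlap. All 3 stalk proteins fell. Rplp1 measured 5057 to 6008 in Het fluoxetine libraries and 6525 to 8805 in Het vehicle libraries, again apart. It fell by 0.47 and Rplp2, its partner, by 0.37, while Rplp0, which anchors both, fell by 0.21. Rpsa, a small subunit protein that is also known as a laminin receptor, fell by 0.13, the X-linked Rps4x by 0.12 and Rpl41 by 0.34. The 16 members that were not called included Rps6 at 0.00 (adjusted p = 0.931, limma), Rpl9 at -0.00, Rps27a, which is made as a fusion with ubiquitin, at -0.09, Rpl22 at -0.08 and Rpl10, the X-linked gene with variants in autism families, at -0.15.

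**Figure D2:**
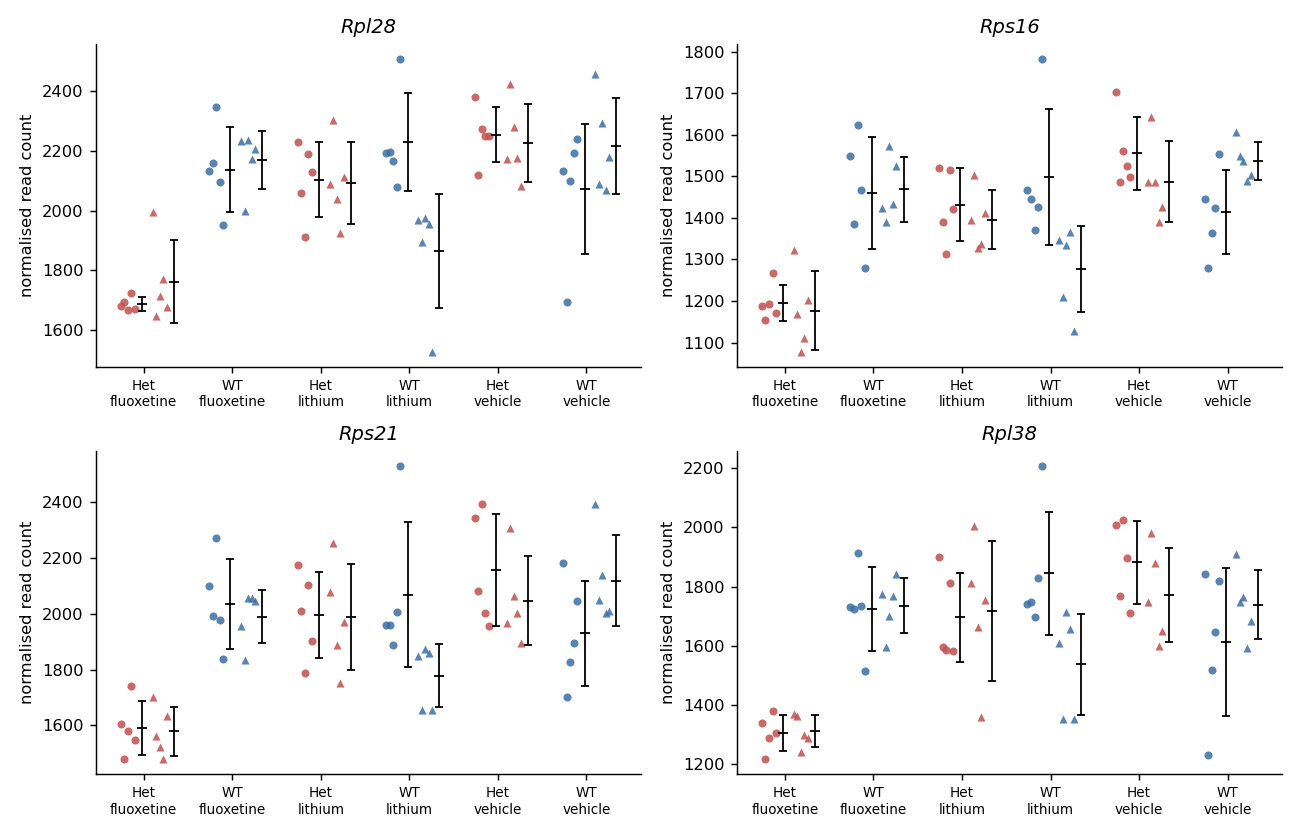
Normalised read counts (vertical axes, not starting at 0) of Rpl28, Rps16, Rps21 and Rpl38 in the 6 arms, females as circles and males as triangles, with mean ± SD of each group of 5. All 10 Het fluoxetine values lie below all Het vehicle values in each panel, and Rpl28 of Het fluoxetine male replicate 1, at 1995, lies above the rest of its arm.

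The 2 members that rose are both paired with copies. Rpl5, which with Rpl11 and a small ribosomal RNA forms a particle that can restrain Mdm2, measured 1184, 1523 and 1646 in Het fluoxetine libraries and 1050, 1204 and 1281 in Het vehicle libraries, a rise of 0.32 (SE 0.08, adjusted p = 0.00156, limma). Its copy Gm15500 fell by 0.11 (adjusted p = 0.0135), with 3641, 3837 and 4047 in Het fluoxetine libraries and 3807, 4130 and 4546 in Het vehicle libraries. Added up, the pair measured 5336 ± 165 in Het fluoxetine and 5337 ± 235 in Het vehicle libraries (SD, n = 10 each), and the log2 fold change of the sum was 0.00 (adjusted p = 0.996, limma). Rpl23, a large subunit protein, rose by 0.12 (adjusted p = 0.0376, limma). It stood at 0.07 when summed with Gm9794 and was not called (adjusted p = 0.224), was not called by edgeR (adjusted p = 0.0539), and was called in 11 of 20 fits that left out 1 library.

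The same sum turned Rps27 round. On its own row it had a log2 fold change of 0.39 in Het fluoxetine mice that was not called (adjusted p = 0.224, limma), with 42.2, 68.0 and 121 in Het fluoxetine libraries and 28.6, 43.6 and 118 in Het vehicle libraries. Summed with Rps27rt it measured 1242 ± 121 in Het fluoxetine and 1685 ± 324 in Het vehicle libraries, a fall of 0.42 (adjusted p = 0.0021). Rpl27a fell by 0.19 once summed, where its own row stood at -0.06 and was not called. Rps23 fell by 0.23 once summed and by 0.10 alone. Rpl12, by contrast, fell by 0.22 alone and stood at -0.08 with its copy (adjusted p = 0.151). With every member summed with its sequence-matched copies, 62 of 77 fell and none rose. Grouped by how much sequence they share, the members gave similar medians: the median log2 fold change was -0.21 in the 26 members sharing least, -0.18 in the middle 25 and -0.21 in the 26 sharing most.

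**Figure D3:**
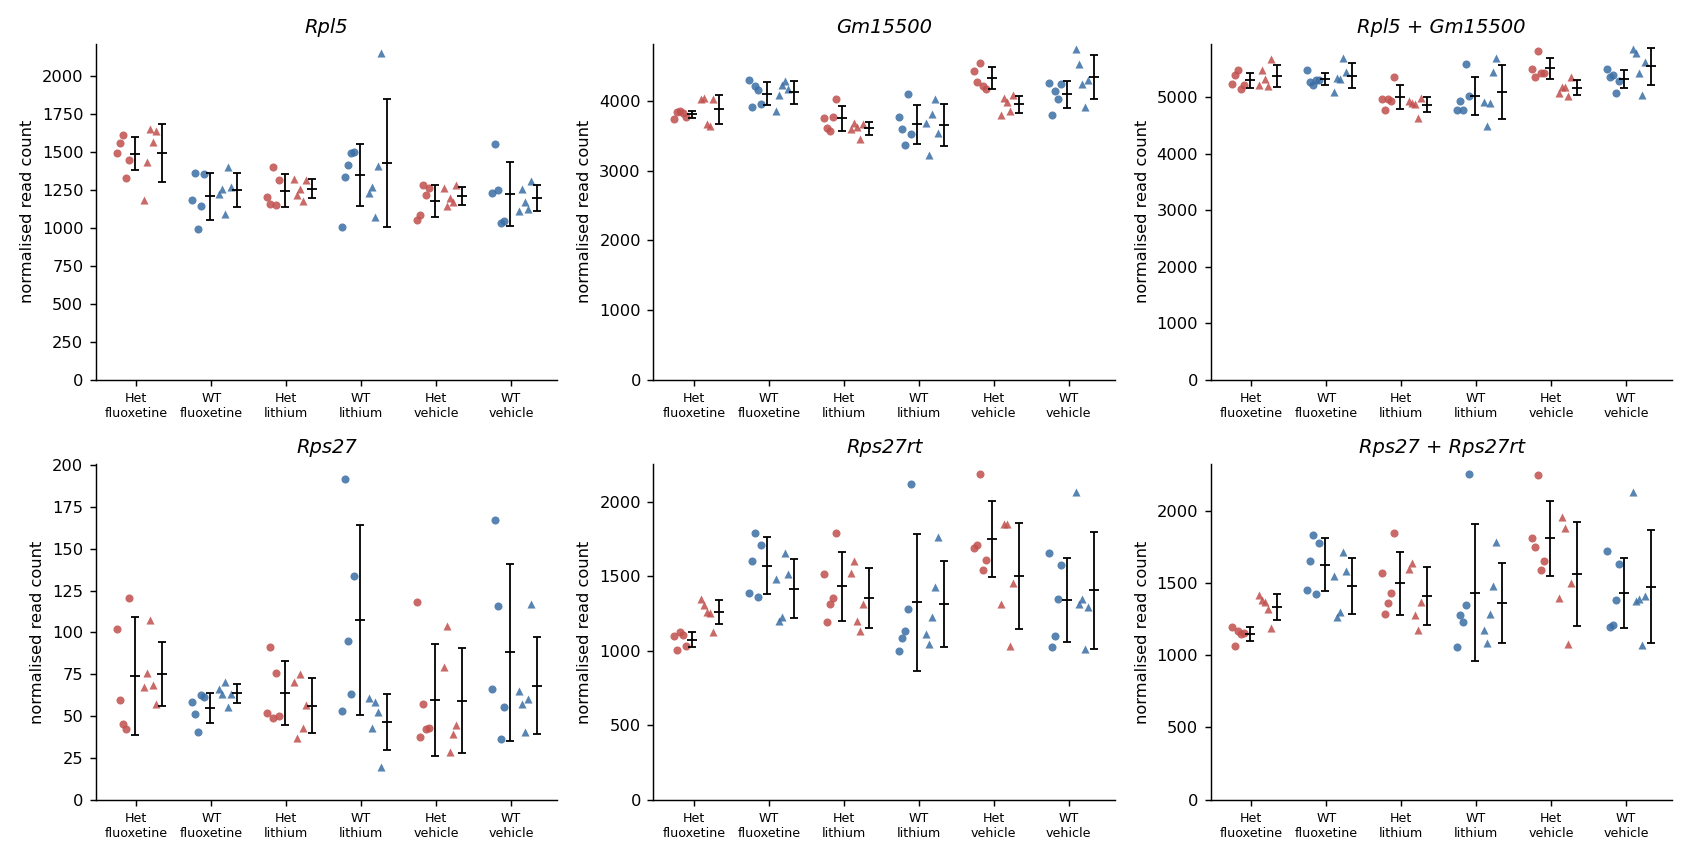
Normalised read counts of Rpl5, its copy Gm15500 and their sum (top row), and of Rps27, Rps27rt and their sum (bottom row), by arm, females as circles and males as triangles, with mean ± SD of each group of 5. Rpl5 is higher and Gm15500 lower in Het fluoxetine than in Het vehicle libraries, while their sums average 5336 and 5337.

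Transcript length and GC content moved with the fall. The 26 members with the shortest transcripts (271 to 583 bases) had a median log2 fold change of -0.27 in Het fluoxetine relative to Het vehicle mice, the middle 25 -0.19 and the longest 26 -0.13. Genes with a principal coding transcript, the members included, behaved in the same order. Over all 218 such genes of 271 to 583 bases the median was -0.21 and 48.2% were called lower. The 26 shortest members, of which 22 fell, are among these 218. Over the 9332 such genes of 860 to 3706 bases the median was -0.02 and 23.3% were called lower. GC content was taken from the longest annotated transcript, which can be far longer than the principal one (for Rps15a 5179 against 640 bases). These GC values need not be those of the mRNA measured. By GC content the members' medians were -0.14, -0.19 and -0.22 in the 26 lowest, the middle 25 and the 26 highest. Those of all genes in the same GC ranges were 0.11, -0.02 and -0.15. Of the 26 members lowest in GC content 16 fell, where 5.37% of all 7676 genes in that range were called lower. After each library was corrected for its GC trend, 48 members still fell and 2 rose, with a median of -0.16. The part of transcript length in the result was not tested.

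The 2 libraries on the wrong side of the pseudogene split bear on the same result. Het fluoxetine male replicate 1 was not low in pseudogenes. It lay below the mean of the Het vehicle males for 49 of the 59 members that fell and for 3210 of all 3545 such genes. It lay below all 5 Het vehicle males for 30 of the 59 (50.8%, against 52.6% of all genes that fell). These genes were called in a fit that included this library, so the counts are a description and no independent check. This library measured 1371 for Rpl38, 1701 for Rps21 and 1322 for Rps16. That these lie below every Het vehicle library follows from the separate arms given above. For Rpl5 it measured 1184, the lowest of its arm. WT vehicle female replicate 2, which was low in pseudogenes, lay below the other 4 WT vehicle females for 63 of 77 members (81.8%, against 32.3% of all genes), with 1231 for Rpl38. With a term for the 10 low libraries in the fit, no member was called (limma, median -0.10). The pseudogenes behind the term were chosen on the Het against WT fluoxetine difference, and the low set nearly coincides with the Het fluoxetine arm. The fit also holds a mean for each group, so the term is estimated from these 2 libraries against the others of their groups. A term that rests on 2 libraries cannot settle the arm difference. As 9 of the 10 are Het fluoxetine libraries, the low set and the arm otherwise cannot be told apart. In males without the low libraries, which leaves 1 Het fluoxetine library that is assumed to vary like the other groups, the median was -0.07 and no member was called.

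By sex, 60 members fell and 1 rose in Het fluoxetine relative to Het vehicle females (25.2% of all genes called, median -0.27), and 27 fell and 1 rose in males (15.8%, median -0.13). The difference between the sexes was called for no member by limma (0% of all genes). It had an unadjusted p under 0.05 for 20 members and for 1225 of all 17810 genes.

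**Figure D4:**
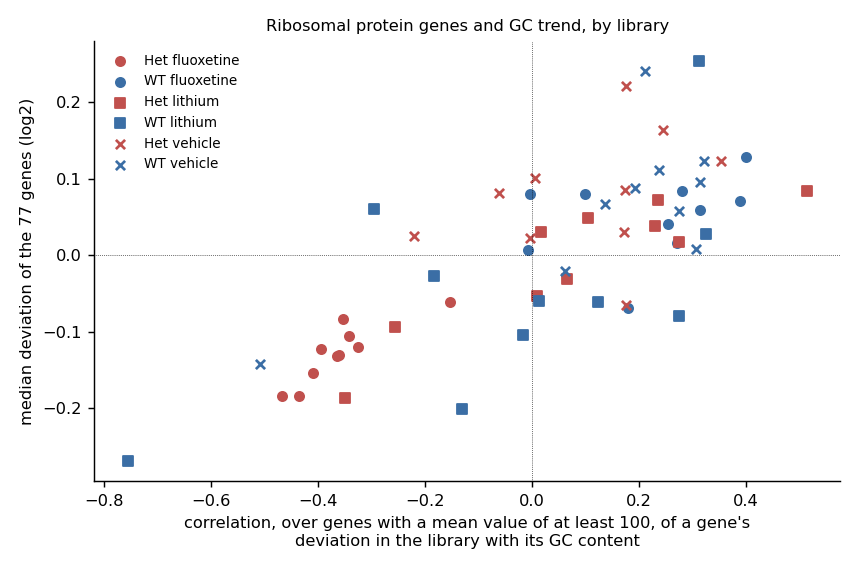
Median log2 deviation of the 77 genes from the mean over all libraries (vertical axis) against the correlation of gene deviation with GC content (horizontal axis), 1 point per library, Het in red and WT in blue. The Het fluoxetine libraries (red circles) sit at the lower left, as do some libraries of other arms. Among those are WT vehicle female replicate 2 (blue cross), WT lithium male replicate 5 (blue square, correlation -0.756) and Het lithium male replicate 4 (red square, correlation -0.350).

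The same drug was also given to WT mice. In WT fluoxetine relative to WT vehicle mice no member was called (limma, and none by edgeR), where 8.43% of all genes were, and the median was -0.01. Of all 17810 genes 3888 had an unadjusted p under 0.05, and of the members 3. Those were Rps3, a small subunit protein with a second role in DNA repair, at -0.10 (adjusted p = 0.0919), Rps6 at -0.08 (adjusted p = 0.175) and Rps23 at -0.09 (adjusted p = 0.195, limma). Without WT vehicle male replicate 5, or without WT lithium replicate 5 of both sexes (adjusted p = 0.0473), Rps3 was called. The difference between the drug effects in Het and WT mice was tested directly. It was called for 40 of 77 members, all with a lower fold change in Het mice (24% of all genes called, 12% lower), led by Rpl38 (-0.53 ± 0.09), Rpl28 (-0.39 ± 0.06), Rps16 (-0.35 ± 0.06), Rps21 (-0.40 ± 0.07) and Rps28 (-0.59 ± 0.11), with adjusted p from 5.02e-05 to 0.000204 (SE, limma). With the GC correction 26 were called, 25 of them lower, and with the term for the low libraries none.

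Between genotypes under fluoxetine, 53 members were lower and 1 was higher in Het than in WT mice (39.5% of all genes called, 19.9% lower, median -0.17). This comparison shares its Het fluoxetine libraries with those above. Rpl28 measured 1647, 1687 and 1995 at the lowest, median and highest in Het fluoxetine libraries, against 1951, 2165 and 2345 in WT fluoxetine libraries. The overlap was limited to Het fluoxetine male replicate 1, and the log2 fold change was -0.32 ± 0.05 (adjusted p = 2.17e-06, limma). Rpl38 had 1217, 1302 and 1380 in Het fluoxetine libraries and 1515, 1731 and 1915 in WT fluoxetine libraries, without overlap, and its log2 fold change was -0.40 (adjusted p = 4.38e-06, limma). Rps16 (-0.30), Rps21 (-0.34) and Rpl36 (-0.43) completed the 5 smallest p-values, and Rpl5 was the member that was higher (0.28), at -0.00 when summed with Gm15500. Among members 15 (19.5%) had separate arms, against 5.09% of all genes. Within a sex 50 members were lower and 1 higher in females (33.2%) and 15 lower in males (3.1%). No member was called for the difference (0% of all genes). The difference had an unadjusted p under 0.05 for 4 members and for 1705 of all 17810 genes. The GC correction left 34 members lower and 3 higher, and the term for the low libraries left none.

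The genotypes were also compared without fluoxetine. In Het vehicle relative to WT vehicle mice no member was called by limma (0.59% of all genes) or edgeR, and the median was 0.02. Of all 17810 genes 1736 had an unadjusted p under 0.05, and of the members 4. Rpl39, a short protein of the exit tunnel, at 0.24 ± 0.07 (adjusted p = 0.136), Rpsa at -0.09 (adjusted p = 0.392) and Rpl38 at 0.13 (adjusted p = 0.456, limma) had the smallest p-values. In Het lithium relative to WT lithium mice no member was called by limma (0.0281% of all genes) or edgeR either, and the median was 0.04. An unadjusted p under 0.05 was found for 2031 of all 17810 genes and for 4 members. Of these members Rps7 (0.09), Rpl27a (0.08) and Rps2 (0.14) had the smallest.

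**Figure D5:**
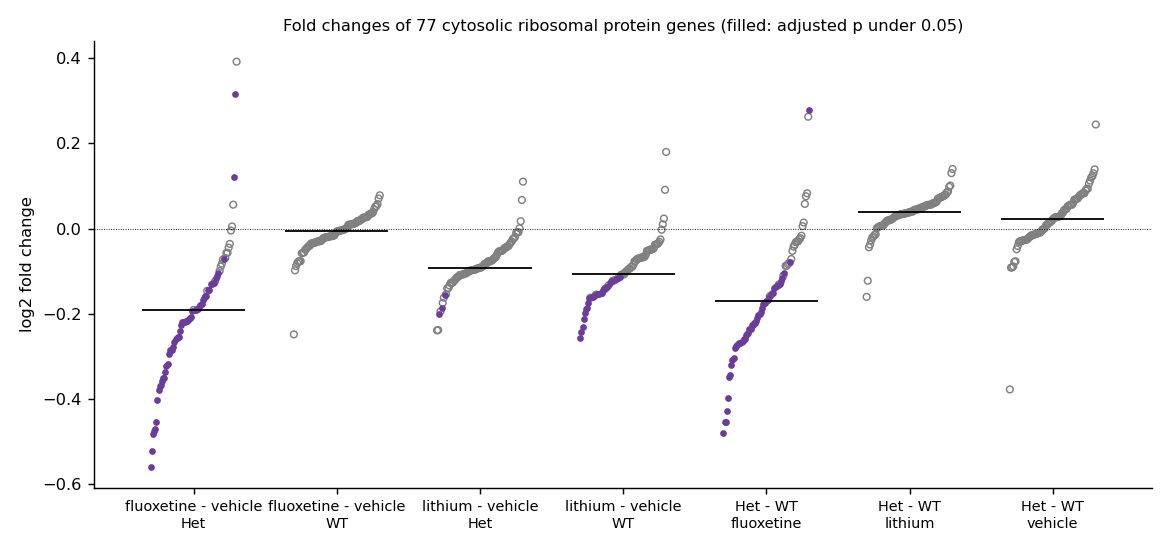
Log2 fold change (vertical axis) of each of the 77 genes in 7 comparisons averaged over the sexes, sorted within a comparison, with filled points for adjusted p under 0.05 and a line at the median. Filled points crowd the fluoxetine comparison in Het mice (61) and the genotype comparison under fluoxetine (54), appear in WT mice on lithium (28) and are 3 in Het mice on lithium.

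In WT lithium relative to WT vehicle mice 28 of 77 members fell and none rose (19.2% of all genes called, 9.87% lower), with a median of -0.11 and 73 of 77 negative. The small subunit supplied 14 of its 31 members and the large subunit 14 of its 46. Rps3 measured 3761, 4348 and 4881 at the lowest, median and highest in WT lithium libraries and 4455, 4924 and 5742 in WT vehicle libraries. These ranges overlapped, and the log2 fold change was -0.21 ± 0.04 (adjusted p = 7.72e-05, limma). Rps6 measured 3419, 3707 and 4246 in WT lithium libraries and 3779, 4270 and 4526 in WT vehicle libraries, a fall of 0.18 (adjusted p = 0.000303, limma). After GC correction Rps6 stood at -0.09 and was not called (adjusted p = 0.232).

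Rpl4, a long protein of the exit tunnel, fell by 0.13, Rps9 of the small subunit by 0.24 and Rpl18 of the large subunit by 0.20 in WT lithium mice, all with adjusted p of 0.0017 or less. Rps9 ranged from 2385 to 3770 in WT lithium and from 3387 to 4582 in WT vehicle libraries, again with overlap. No member separated the 2 arms (0.23% of all genes did). Rpl28, Rps16, Rps21 and Rpl38, named above for Het fluoxetine mice, were not among the 28.

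The counts varied with sex and with single libraries. In WT lithium relative to WT vehicle males 47 members fell (20.8% of all genes called, median -0.24), and in females 2 fell, Rps6 and Rpl9, and Rps15a rose (11.8%, median 0.02). The female change exceeded the male one for 31 members (9.64% of all genes called), led by Rps15 (0.42 ± 0.10) and Rplp2 (0.53 ± 0.13, adjusted p = 0.022, limma). WT lithium replicate 5 stood apart in each sex: the female library had 1.07% of its reads on members and the male library 0.700%, the highest and lowest of all 60. The sex difference was called for no member when either of these libraries was left out or without WT vehicle female replicate 2, and for 16 without WT vehicle male replicate 1. Without both replicates 5, none was called for it and 29 members fell in WT lithium mice, among them 25 of the 28. Averaged over the sexes, the counts without 1 library were 14 without WT vehicle male replicate 1, 16 without WT lithium female replicate 3, 17 without WT lithium male replicate 5 and 40 without WT lithium female replicate 5. Fitted on the 4 WT lithium and WT vehicle groups alone, 6 fell and none was called for the sex difference. With the GC correction 23 were called and none for the sex difference.

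Markers of other cells moved alongside lithium in WT mice. All 4 endothelial, all 3 pericyte, 4 of 5 astrocyte, 4 of 5 microglial and 3 of 4 meningeal fibroblast markers fell. Their median log2 fold changes were -0.38, -0.29, -0.30, -0.31 and -0.46 in that order. Of all genes 19.2% were called there. None of 5 excitatory neuron, 5 oligodendrocyte, 3 oligodendrocyte precursor or 4 blood markers was called, and 1 of 5 inhibitory neuron markers rose. The summed endothelial markers averaged 3321 ± 436 in WT lithium libraries and 4462 ± 396 (SD, n = 10 each) in WT vehicle libraries. In Het fluoxetine mice, where 39% of all genes were called, all 4 endothelial markers fell too, with a median of -0.20. In WT fluoxetine relative to WT vehicle mice no member and 8.43% of all genes were called. There 3 of 4 endothelial markers fell, with a median of -0.35. Of the others in Het fluoxetine mice, 2 of 5 excitatory neuron markers fell, and 2 of 5 inhibitory neuron markers fell while 1 rose. In these mice 1 of 3 oligodendrocyte precursor and 1 of 4 meningeal fibroblast markers rose, and 1 of 4 blood markers fell. None of 5 astrocyte, 5 microglial, 5 oligodendrocyte or 3 pericyte markers was called in them. No marker named for these types was at 0 in any library. The part of these cells in the result was not tested.

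In Het lithium relative to Het vehicle mice 3 members fell and none rose (0.983% of all genes called, 0.5% lower), with a median of -0.09 and 73 of 77 negative. Rpl30, which in yeast regulates the splicing of its own transcript, measured 1784, 2164 and 2285 in Het lithium libraries and 2038, 2493 and 2834 in Het vehicle libraries, a fall of 0.20 (adjusted p = 0.0437). Rps23, a decoding-site protein, fell by 0.16 (adjusted p = 0.0437) and Rpl17 of the exit tunnel by 0.19 (adjusted p = 0.0491, limma). All 3 lie close to the threshold: leaving out 1 library gave 0 to 4 calls, and each gene was called in 4 to 6 of 20 such fits. The difference between the lithium effects in Het and WT mice was called for no member by limma (0.0674% of all genes) or edgeR. It had an unadjusted p under 0.05 for 4 members and for 1969 of all 17810 genes. The smallest p-values among the members were those of Rpsa (0.15), Rps9 (0.19) and Rpl13 (0.21).

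After group means were removed, the median correlation over 2926 pairs of members was 0.51 across the 60 libraries, with a range from -0.61 to 0.96. Both members of a pair are measured in the same libraries, which differ in depth and GC trend, and pairs of other genes were not computed. The tracts found began from 20 bases before the start to 9 after it, so not all lie where the mRNA begins. Members with and without a tract in this window gave these counts in Het fluoxetine relative to Het vehicle mice: of 32 with a tract 22 fell and 1 rose (median -0.17), and of 25 without one 20 fell and 1 rose (median -0.19). In WT lithium mice 9 of the 32 and 12 of the 25 fell, with medians of -0.10 and -0.12.

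Other genes of the pathway were counted in the same way, to be read against the 39% of all genes called in Het fluoxetine and the 19.2% called in WT lithium mice. Of 10 further cytosolic ribosomal genes outside the naming rule, 6 fell and none rose in Het fluoxetine relative to Het vehicle mice (60% called, median -0.18), among them Fau (-0.26), a ubiquitin-like fusion whose product is a small subunit protein, and Rpl36al (-0.16). Of 23 translation factors and related genes with TOP mRNAs 7 fell and 6 rose (56.5% called, median -0.02), led by Npm1 (0.29), a nucleolar chaperone, Eif4b (0.12) and Eif4a2 (0.26), which unwind mRNA for initiation. Of 48 ribosome biogenesis genes 15 fell and 7 rose (45.8% called, median -0.05), led by Nob1 (-0.25), Nop10 (-0.35) and Fbl (-0.25), which cleave or modify ribosomal RNA. Of 78 mitochondrial ribosomal protein genes 21 fell and 11 rose (41% called, near the share of all genes, median -0.06), with Mrpl50 (0.34), Mrps12 (-0.25) and Mrpl3 (0.24) in front.

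Genes of mTORC1 signalling divided 5 lower and 7 higher of 26 (46.2% called, median -0.01). The translation repressor Eif4ebp2 fell (-0.28), the kinase Rps6kb1 that phosphorylates Rps6 rose (0.23) and its relative Rps6kb2 fell (-0.20). Among 17 p53 target genes 6 rose and 2 fell (47.1% called, median 0.11), with Trp53inp1 (0.57) and Pmaip1 (0.50) higher and Bax (-0.25) lower, the last 2 being promoters of cell death. In WT lithium relative to WT vehicle mice 9 of 23 TOP genes fell and 2 rose (47.8% called, median -0.05), led by the elongation factors Eef1g (-0.19) and Eef2 (-0.24) and the initiation factor subunit Eif3h (-0.16), while 7 biogenesis genes rose and 2 fell (18.8% called, median 0.02), Gnl3 (0.34), a nucleolar GTPase, and Ubtf (-0.19), a factor of ribosomal RNA transcription, among them. Of the 10 further cytosolic ribosomal genes 2 fell and none rose there (20% called, near the 19.2% of all genes, median -0.10). These were Fau (-0.21) and Rack1 (-0.16), a scaffold on the small subunit. Of the p53 targets 1, Eda2r, fell (-0.97), and of the mTORC1 genes 6 rose and 1, Eif4ebp2 (-0.26), fell (26.9% called). Of the mitochondrial ribosomal genes 5 fell and 2 rose (8.97% called).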

How the data were processed

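The authors deposited 1 table of normalised values per gene and library, a signal obtained by dividing whole reads by 1 size factor per library: after multiplication by that factor 100% of values came out whole within 0.001. Salmon 0.11.2, R 3.6.0, DESeq2 1.19.11 and GRCm38 are named, without roles, per the submitters' processing notes. Per the labels' protocols the kit kept the strand of the mRNA. Use of the strand in counting is not stated in these sources. Identifiers were matched to GENCODE M21 (18077 of 18088). Only genes that reached 10 in 5 or more libraries were kept, and log2(value + 1) of the deposited values was fitted with limma 3.58.1 (R 4.3.3, trend and robust variance) on 12 group means over 60 libraries, with Benjamini-Hochberg adjustment over 17810 genes and a call at adjusted p under 0.05. The fit was also run on simulated reads drawn independently for each gene. Those reads held no GC trend and no libraries low in pseudogenes, so that run cannot check the calls for such effects. Alternatives included edgeR 4.0.16 on the recovered reads, TMM scaling, a pseudocount of 5, no filter, a replicate block, GC correction by loess, a term for libraries low in pseudogenes, and each member summed with copies that hold at least 50% of their own 31-base words in it. The last, and leaving out WT lithium replicate 5, were chosen after seeing the data.

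Members named were, per comparison and direction, the 5 of smallest p among those called (the 3 with the smallest p where fewer than 3 were called), the 3 highest and 3 lowest per length, 10 textbook members, the 3 with most reads on copies, and from each other list the 3 called genes with the smallest p. Rps29, Rpl9 and Rps15a lie outside that rule and were named after their values were seen. The values of 1 member that the rule names are not reported here. The members and lists were chosen with earlier results of these data known. Intervals on shares cover counting error only. Genome sequences came from RefSeq (GRCm38.p6) for start sites and from the GENCODE M21 transcripts for coding sequences. Protein sequences were not used here.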

Additional observations from a re-analysis of the deposited data

Results flagged for a closer look

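For 24 quantities, namely the members named by comparison and the share of reads on all members, each of the 12 groups of 5 libraries was searched for a library far from the other 4, by Dixon's 95% critical value. Of 288 groups 25 held one, where chance gives about 1 in 20. WT lithium female replicate 5 was high for Rpl38 (2207.5, others 1698 to 1829.6), Rpl28 (2508), Rps16 (1783), Rps21 (2529), Rpl17 (4335) and Rps28 (1732). WT lithium male replicate 5 was low for Rpl28 (1527), Rps2 (5029) and Rps23 (1324). WT vehicle male replicate 1 was high for Rps7 (4615), Rpl27a (2329.7), Rps2 (11042), Rpl18 (2356) and Rpl13 (6079). WT vehicle female replicate 2 was low for Rpl28 (1693) and Rpl18 (1491).

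The remaining libraries stood out for 1 or 2 members each. WT fluoxetine male replicate 2 was low for Rpl28 (1999.99) and Rps28 (959), and WT fluoxetine male replicate 5 was high for Rps6 (4344). Het lithium male replicate 4 was low for Rps9 (2856) and Rpl30 (1784), and Het lithium female replicate 4 was low for Rpl23 (2845). Het fluoxetine female replicate 4 was high for Rpsa (8622), Het fluoxetine female replicate 1 for Rpl30 (2165) and Het vehicle female replicate 3 for Rpl30 (2834).

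Fold changes that differed between groups by a test of the difference were also noted. The fold change under fluoxetine differed between Het and WT mice for 40 members (24% of all genes called, 12% lower). Among them were Rpl38 (-0.53), Rpl28 (-0.39), Rps16 (-0.35), Rps21 (-0.40) and Rps28 (-0.59), given as the log2 fold change in Het minus that in WT mice (limma). Across 12 other settings the count ran from 0, with the term for the low libraries, to 47. Most of the low libraries are Het fluoxetine libraries, so the low set and that arm can hardly be told apart. The fold change under lithium in WT mice differed between females and males for 31 members (9.64% of all genes called). Leaving out 1 library gave 0 to 40 such members, so that count depends on single libraries.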

How the results depend on the processing

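Counts of called members stayed within 1.5 times the reported count for most alternatives. The term for the libraries low in pseudogenes gave 0 members for fluoxetine in Het mice, 0 for genotype under fluoxetine and 0 for the interaction. It was built from pseudogenes chosen on the Het against WT fluoxetine difference. Its estimate rests on single libraries set against the others of their groups, so it cannot settle that difference. The GC correction gave 26 for the interaction. For fluoxetine in WT mice 1 member was called under the GC correction, 1 after omitting the 3 libraries of largest residuals and 1 without WT lithium replicate 5 of both sexes. For lithium in Het mice these gave 5 (the term), 5 and 6, and for lithium in WT mice the groups alone gave 6. The sex difference under lithium in WT mice gave 0 for the groups alone, the GC correction and both of these omissions, and 5 with the term. The cause was not tested.

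Leaving out 1 library gave 55 to 61 for fluoxetine in Het mice, 51 to 57 for genotype under fluoxetine, 34 to 43 for the interaction, 0 to 1 for fluoxetine in WT mice, 14 to 40 for lithium in WT mice, 0 to 4 for lithium in Het mice and 0 to 40 for the sex difference. Of the 61 members called for fluoxetine in Het mice 54 were called in all 20 such fits, and 13 of 28 for lithium in WT mice. Rpl5 changed sign for genotype under fluoxetine, to -0.0033 summed with copies and -0.11 with the term, and for fluoxetine in Het mice to -0.0696 with the term. Replicate numbers did not pair the libraries: the correlation of same-numbered libraries averaged -0.012 to 0.013, and 10 of 60 libraries correlated best with their own number. With the number as a block, the counts were 60 for fluoxetine in Het mice, 54 for genotype under fluoxetine, 41 for the interaction and 28 for lithium in WT mice. Low counts limit Rps27, whose own row had values of 19.5 to 192.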

Other observations

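In the absence of drug, the genotype difference had opposite signs in the sexes without passing the test. In Het vehicle relative to WT vehicle females 70 of 77 members had a positive log2 fold change (median 0.10), and in males 67 were negative (median -0.06). Of all 17810 genes 8675 were positive in females and 8777 negative in males. No member was called for the difference between the sexes (limma, 0% of all genes), although 27 had an unadjusted p under 0.05, against 469 of all 17810 genes. WT vehicle female replicate 2 and WT vehicle male replicate 1, which were low and high for several members, are in this comparison, and their part in it was not tested.

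Among the 32 tested rows for copies of members, 13 fell and 3 rose in Het fluoxetine relative to Het vehicle mice, with a median log2 fold change of -0.25 (50% called, against 39% of all genes). The next 2 belong to the pseudogenes chosen for differing between Het fluoxetine and WT fluoxetine libraries, so their values are a description. Rps6-ps4, whose coding sequence matched that of Rps6 at all 750 bases, had a median of 0 and a highest value of 10.4 in Het fluoxetine libraries, against 27.1 at the lowest, 48.3 at the median and 108 at the highest in Het vehicle libraries. The median of Gm9794 was 22.1 in Het fluoxetine libraries and 144 in Het vehicle libraries.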
